A study of Mus musculus with 4 samples.

Results

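The genes described here are the mouse genes that make, use and regenerate glutathione and the other thiol and peroxide-removing systems of the cell, many of which are targets of the transcription factor NRF2. They were taken by a rule on gene symbols. It took every protein-coding gene of the expression table that is a glutathione S-transferase (Gsta, Gstk, Gstm, Gsto, Gstp, Gstt, Gstz or Mgst), a glutathione peroxidase, a peroxiredoxin, a part of the thioredoxin system, a glutathione synthesis or recycling enzyme, catalase, a superoxide dismutase, Nqo1, Hmox1, Nfe2l2 or Keap1. The rule found 56 of 31828 listed genes, of which 43 had a mean of at least 1 TPM and were tested. TPM is a transcript's abundance per unit of its length, scaled to a fixed sum in each library, so levels of different genes can be compared on it.

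The study compared AML12 cells grown in 2D, replated as a flat layer in a dish, with AML12 cells grown in 3D, embedded in Matrigel, an extract of basement membrane. AML12 (alpha mouse liver 12) is an established line from hepatocytes of a mouse that carried a human TGF-alpha transgene, so the results describe a single line and not liver. Both cultures received serum, insulin, transferrin, sodium selenite and dexamethasone. Both were treated with 1 mM hydroxyurea, a drug that depletes the building blocks of DNA and stops replication, for 24 h in 2D and 36 h in 3D, so culture and treatment time cannot be told apart in any result below. Polyadenylated RNA was sequenced in 2 libraries per culture, and the labels do not say whether the 2 came from separate cultures. The p-values therefore measure the spread between these libraries, which may be technical.

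Sequencing depth is unknown, since TPM keeps no read numbers. The number of genes at 1 TPM or more was 13891 to 14256 over the libraries. Of 12 hepatocyte marker symbols searched, 11 were found and 8 reached a mean of 1 TPM. The symbol not found was Tf, which does not show that its gene is absent. The transcription factor Hnf4a rose from 57.1 TPM in 2D to 159.7 TPM in 3D, while Cps1, Serpina1a and Asgr1, which mark mature hepatocytes, stayed under 1 TPM in every library. Endothelial markers summed to 0.878 to 2.13 TPM over 5 genes, and the leukocyte marker Ptprc had means of 0.148 TPM in 2D and 0.288 TPM in 3D. In bulk RNA, fewer cells of a type and less RNA per cell cannot be told apart.

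Glutathione is a tripeptide of glutamate, cysteine and glycine and the most abundant small thiol of the hepatocyte. Glutathione peroxidases spend it to reduce peroxides, glutathione S-transferases couple it to drugs and reactive lipids for export into bile and blood, and glutathione reductase returns the oxidised form to use. NRF2, the product of Nfe2l2, drives many of these genes by binding the antioxidant response element together with a small MAF protein. KEAP1 holds NRF2 in the cytosol for degradation until its own cysteines are modified. Most of this control acts on NRF2 protein, which RNA does not measure.

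Among the genes expressed highly enough to be tested, more were higher than lower in 3D. Of the 43 tested, 25 were higher and 8 lower in 3D by limma's test on log2(TPM + 1) at an adjusted p-value under 0.05, and 10 were not called, where 50.5% of all genes were called in either direction. The shares were 58.1% higher and 18.6% lower, beside 23.4% higher and 27.1% lower among all 14116 genes tested. The median log2 fold change (3D minus 2D) was 0.40 over the 43 genes and -0.04 over all genes tested. More than 1 on the log2 scale separated the cultures upward for 12 genes, beside 4.37% of all genes, and downward for Gpx8 only, beside 3.83% of all genes. Gsta3, Gstt1 and Gstm7, among the 25 and the 12, were under 1 TPM in 2D and entered the test only through 3D. They could only come out higher. With no filter on low values, where all 56 genes enter, the median was 0.25, beside -0.01 over all genes. In 37 of the 43 the libraries of the 2 cultures did not overlap, which also held for 77.5% of all genes tested. Together the 56 genes took up 0.505% and 0.481% of all TPM in 2D, against 0.619% and 0.639% in 3D.

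**Figure D1:**
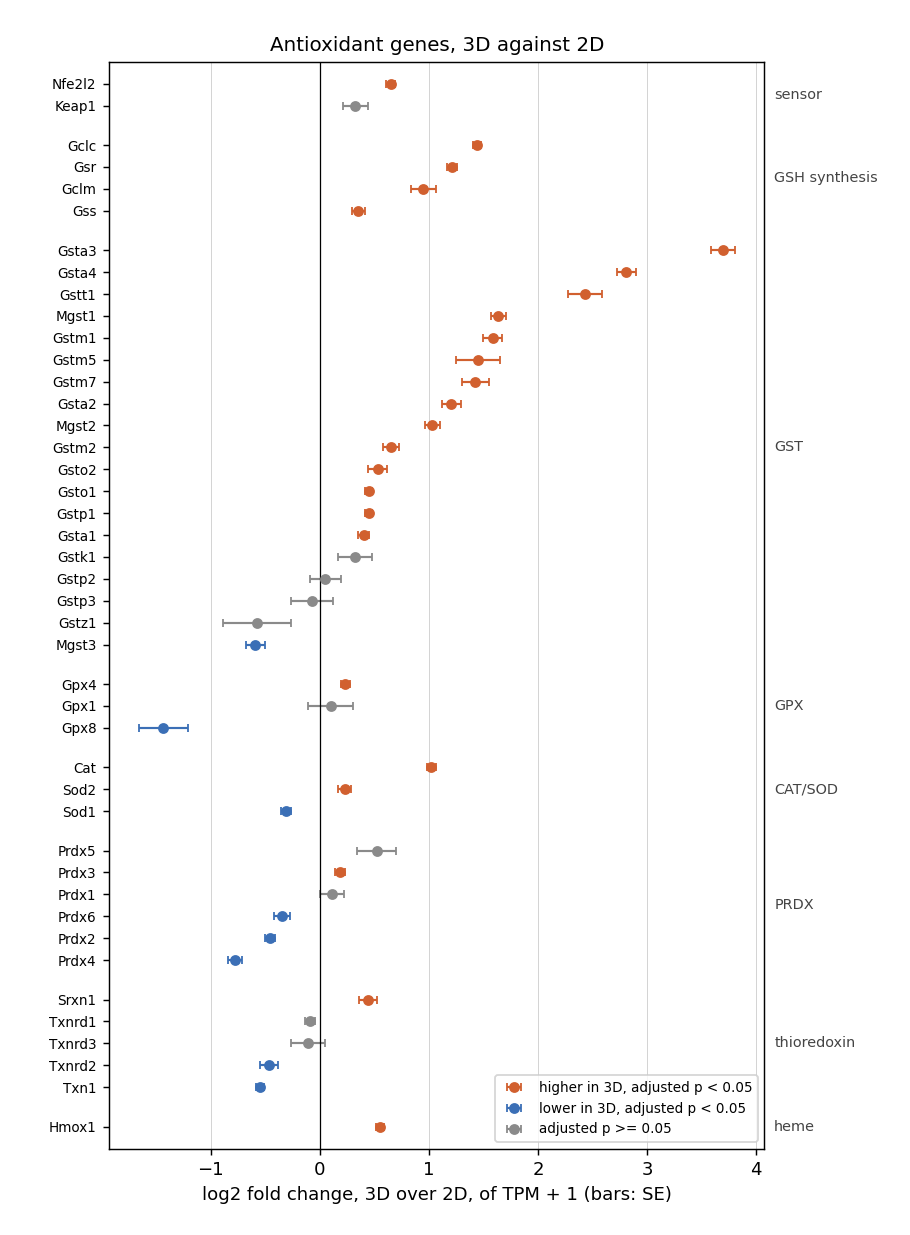
Log2 fold change of each tested gene (3D minus 2D, on log2(TPM + 1)) as a point with its standard error as a bar, by role group, with orange for higher, blue for lower and grey for not called. All 4 glutathione synthesis and recycling genes and 14 of 19 glutathione S-transferases lie to the right as higher in 3D, while the peroxiredoxins and the thioredoxin system lie on either side of 0. Of the 14, Gsta3, Gstt1 and Gstm7 entered the test only through their level in 3D.

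The genes called are counted here by group, beside 23.4% higher and 27.1% lower among all genes tested. All 4 genes of glutathione synthesis and recycling were higher in 3D, with a median log2 fold change of 1.08. Of 19 glutathione S-transferases tested, 14 (73.7%) were higher, 1 (5.26%) lower and 4 not called, with a median of 0.65. The 14 include Gsta3, Gstt1 and Gstm7, which could only come out higher. The 6 peroxiredoxins split into 1 higher (16.7%), 3 lower (50%) and 2 not called (median -0.11). The 5 genes of the thioredoxin system split into 1 higher (20%), 2 lower (40%) and 2 not called (median -0.11). A difference between these groups was not tested.

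The transcription factor itself was among the genes that rose. Nfe2l2 (ENSMUSG00000015839, GRCm38 chromosome 2, 75675513 to 75704641) read 92.9 and 91.1 TPM in 2D and 146 and 144 TPM in 3D. Both 3D libraries stood clear of both 2D libraries, a 1.58-fold difference in mean TPM and a log2 fold change of 0.65 with a standard error of 0.04 (limma adjusted p 0.000665). Keap1, its sensor and inhibitor, read 25.98 and 20.97 TPM in 2D and 30.3 and 28.7 TPM in 3D. The cultures did not overlap, but the 2D libraries lay further from each other than from the nearest 3D library, and a log2 fold change of 0.32 (SE 0.11) did not pass the test (limma adjusted p 0.0729), though it did without 2D replicate 1 (0.0181). In a fit that also paired libraries by replicate number, Keap1 was called higher (limma adjusted p 0.0474). Nfe2l2 RNA exceeded Keap1 RNA 3.58-fold and 4.35-fold in 2D, against 4.83-fold and 5.00-fold in 3D.

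The promoters are shown here because NRF2 acts through a short DNA element, so the letters around the starts of these genes can be set beside their changes in RNA. RefSeq promoters (GRCm38.p6, 250 bases before to 50 bases after a start) were at hand for 49 of the 56 genes, with 63 promoters in all. Gsr, Prdx6, Hmox1, Gclc, Gstt2, Gsta4 and Sod3 had none in that table. The core of the element, TGACNNNGC or its reverse complement GCNNNGTCA, stood in 10 of the 63 promoters (15.9%) and in 4071 of 32851 promoters of all genes (12.4%), so these genes held it about as often as promoters at large. The fuller form TGACTCAGC, which lies within the core pattern and also contains the AP-1 site TGACTCA, stood in 1 of the 63 (1.59%), that of Prdx1, and in 149 of all promoters (0.454%). A match is a run of letters and not a bound site, and elements further from the start were not searched. All matches lie before a RefSeq start except that of Srxn1, which begins 28 bases past it. Those of Txnrd1, Mgst1 and Gstm7 lie before a RefSeq start but are themselves inside the gene's span in the expression table. The 10 matches follow, each on its gene's strand from 5′ to 3′ with the match in capitals.

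Gsta3, higher in 3D, chr1:21240454-21240482 (+): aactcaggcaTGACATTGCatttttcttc
Nfe2l2, higher in 3D, chr2:75704885-75704913 (-): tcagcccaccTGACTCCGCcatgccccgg
Srxn1, higher in 3D, chr2:152105542-152105570 (+): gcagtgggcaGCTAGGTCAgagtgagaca
Gstm5, higher in 3D, chr3:107895802-107895830 (+): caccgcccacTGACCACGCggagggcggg
Gstm7, higher in 3D, chr3:107931725-107931753 (-): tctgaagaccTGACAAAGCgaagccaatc
Gclm, higher in 3D, chr3:122245413-122245441 (+): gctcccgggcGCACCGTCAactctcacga
Mgst1, higher in 3D, chr6:138140461-138140489 (+): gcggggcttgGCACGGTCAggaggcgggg
Prdx1, not called, chr4:116685456-116685484 (+): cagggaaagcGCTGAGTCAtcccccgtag
Txnrd1, not called, chr10:82859104-82859132 (+): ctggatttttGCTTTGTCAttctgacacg
Sod1, lower in 3D, chr16:90220696-90220724 (+): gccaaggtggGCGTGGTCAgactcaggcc

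Of the 10 genes with a match, 7 were higher, 1 was lower and 2 were not called, beside 58.1% higher and 18.6% lower among the 43 genes tested. Those 43 include genes without a promoter to search. Gsta3 and Gstm7, among the 7, entered the test only through their level in 3D. Whether genes with and without a match differed was not tested. The only gene with the fuller form, Prdx1, was not called. Gsta4, Gclc, Gsr and Hmox1, all higher in 3D, and Prdx6, lower in 3D, could not be searched. A pair of these promoters show how unlike the surrounding sequence can be. The 250 bases before the start of Gsta3, a transferase gene, were 42.0% G or C, and those before Gclm were 78.4% G or C. Whether G and C content goes with RNA level was not tested.

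Gsta3, chr1:21240335-21240584 (+): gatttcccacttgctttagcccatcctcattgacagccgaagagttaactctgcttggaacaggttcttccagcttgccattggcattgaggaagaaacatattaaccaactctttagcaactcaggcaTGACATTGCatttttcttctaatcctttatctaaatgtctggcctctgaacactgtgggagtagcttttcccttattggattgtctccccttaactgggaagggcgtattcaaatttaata
Gclm, chr3:122245307-122245556 (+): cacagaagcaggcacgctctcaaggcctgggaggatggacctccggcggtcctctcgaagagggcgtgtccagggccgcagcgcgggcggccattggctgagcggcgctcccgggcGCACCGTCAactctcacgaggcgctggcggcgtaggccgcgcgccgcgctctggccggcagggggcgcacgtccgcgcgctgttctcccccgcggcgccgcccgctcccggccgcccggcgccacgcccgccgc

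RNA of the glutathione synthesis enzymes was higher in 3D. Gclc, the catalytic subunit of the rate-limiting ligase that joins glutamate to cysteine (ENSMUSG00000032350, chromosome 9, 77754535 to 77794485), read 205 and 211 TPM in 2D and 571 and 562 TPM in 3D. That was a 2.72-fold difference in mean TPM, far beyond the spread within either culture (log2 fold change 1.44, SE 0.04, limma adjusted p 0.000202). Gclm, the modifier subunit of the same ligase (ENSMUSG00000028124, chromosome 3, 122245557 to 122270732), was present at a much lower level, 10.9 and 9.73 TPM in 2D and 22.7 and 19.1 TPM in 3D. It rose 2.03-fold (log2 fold change 0.95, SE 0.11, limma adjusted p 0.00331). It overlaps the pseudogene Gm6061, which was listed at 4.82 to 6.36 TPM, on the same strand. The RNA of the catalytic subunit exceeded that of the modifier 18.9-fold and 21.7-fold in 2D, against 25.1-fold and 29.5-fold in 3D.

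Gss, which adds glycine to finish the tripeptide, read 62.5 and 57.2 TPM in 2D and 77.6 and 75.7 TPM in 3D. Its rise was the smallest of the group, 1.28-fold (log2 fold change 0.35, SE 0.06, limma adjusted p 0.00940), and without 3D replicate 1 the limma adjusted p was 0.0557. Gsr, glutathione reductase (ENSMUSG00000031584, chromosome 8, 33652523 to 33698163), went from 56.8 and 54.5 TPM to 129.8 and 130.1 TPM. The 3D libraries nearly coincided and stood 2.34-fold above the 2D libraries (log2 fold change 1.21, SE 0.05, limma adjusted p 0.000282).

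**Figure D2:**
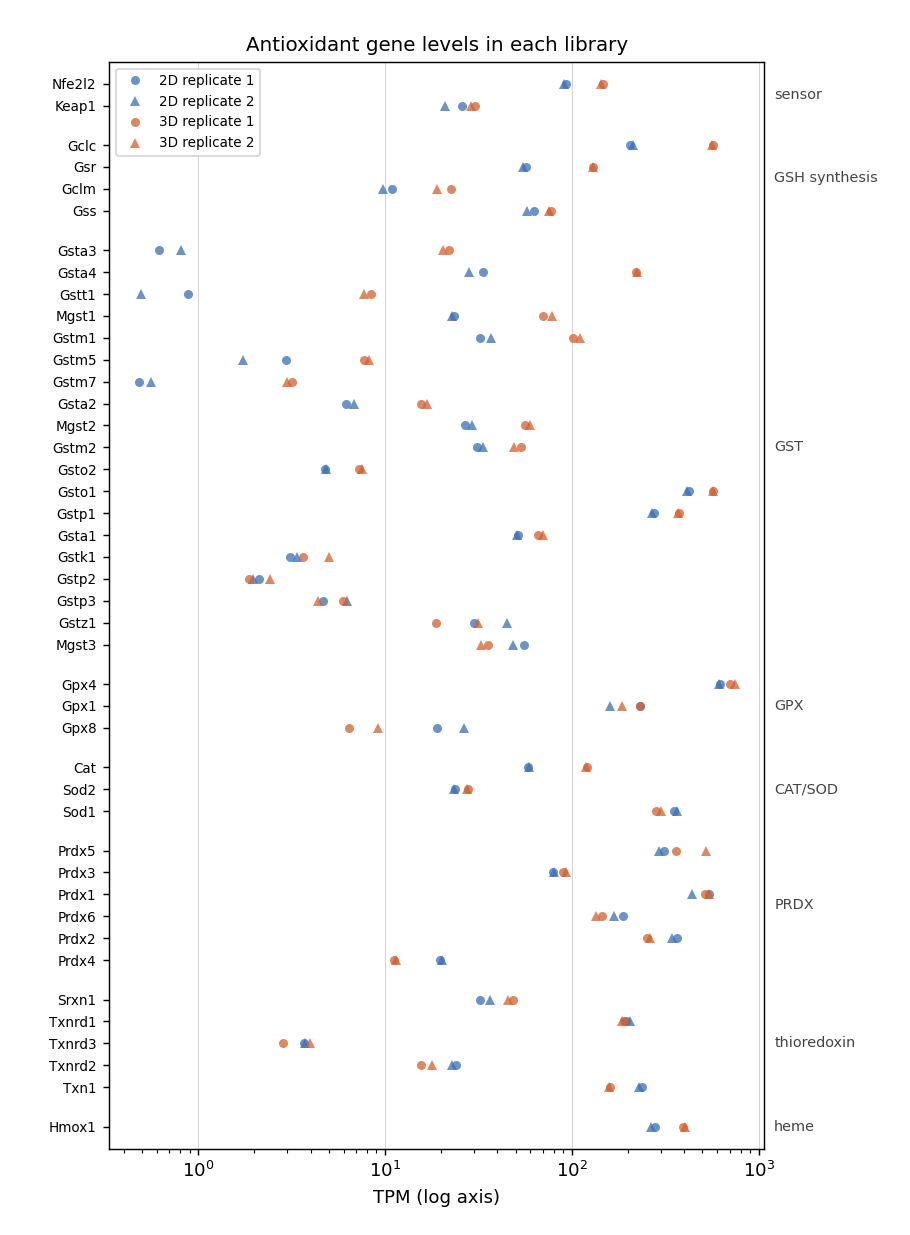
TPM of each tested gene in each library on a log axis, with 2D and 3D libraries as separate points, by role group. Circles are replicate 1 and triangles replicate 2, and the gap between cultures is widest for Gsta3, with 2D points at 0.616 and 0.810 TPM and 3D points at 21.9 and 20.4 TPM.

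The glutathione S-transferases carried the largest differences. Of the 12 genes past 1 on the log2 scale, 9 belonged to this family. Gsta3, Gstt1 and Gstm7 among them were under 1 TPM in 2D and entered the test only through their level in 3D, so they had to differ. Gsta4, which detoxifies 4-hydroxynonenal and related products of lipid peroxidation (ENSMUSG00000032348, chromosome 9, 78182774 to 78209349), read 33.4 and 28.3 TPM in 2D and 221 and 223 TPM in 3D. It moved from a minor to the third most abundant transferase RNA, a 7.18-fold rise (log2 fold change 2.81, SE 0.09, limma adjusted p 0.000230). Gsta3 (ENSMUSG00000025934, chromosome 1, 21240589 to 21265661), an alpha-class enzyme abundant in liver that also acts on aflatoxin epoxide, was listed at 0.616 and 0.810 TPM in 2D and reached 21.9 and 20.4 TPM in 3D. On mean TPM that was 29.7-fold, a ratio whose denominator is under 1 TPM and thus poorly known. On the log2(TPM + 1) scale it was 3.69 (SE 0.11, limma adjusted p 0.000215).

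The other alpha-class genes rose less. Gsta2 read 6.17 and 6.81 TPM in 2D and 15.7 and 16.9 TPM in 3D (log2 fold change 1.21, SE 0.09, limma adjusted p 0.000951). Gsta1 read 51.2 and 51.1 TPM in 2D and 66.0 and 69.8 TPM in 3D, a log2 fold change of 0.40. These 2 genes are near-copies, and how reads were split between them is uncertain. Of the 100-base stretches of the Gsta1 transcript 81.8% occur letter for letter in another gene (Gsta2, Gm10639 or Gm3776), as do 35.02% of those of Gsta2. The 4 genes summed to 72.7 and 73.4 TPM in 2D and 111 and 118 TPM in 3D, so the sum was also higher in 3D. Gsta3 and Gsta4 share no such stretch with any other gene.

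The mu class lies in a tandem array of 7 genes within 149.1 kb of chromosome 3, and its members did not all behave alike. Gstm1, the most abundant of them (ENSMUSG00000058135, 108012255 to 108017973), read 32.2 and 37.1 TPM in 2D and 102 and 110.0 TPM in 3D, a 3.06-fold rise (log2 fold change 1.59, SE 0.09, limma adjusted p 0.000526). Gstm2, its neighbour, rose 1.59-fold, from 31.2 and 33.5 TPM to 53.6 and 49.3 TPM. At the other end of the array Gstm7 went from 0.482 and 0.559 TPM to 3.16 and 3.00 TPM, and Gstm5 from 2.94 and 1.73 TPM to 7.71 and 8.24 TPM. All 4 passed the test as higher in 3D, but Gstm7 entered it only through its level in 3D, so it had to differ. Gstm3, Gstm4 and Gstm6, which lie between and beside them, stayed under 1 TPM in every library and were not tested. In 3D, genes above and under 1 TPM were thus interspersed along the array, and in 2D Gstm7 was also under 1 TPM.

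**Figure D3:**
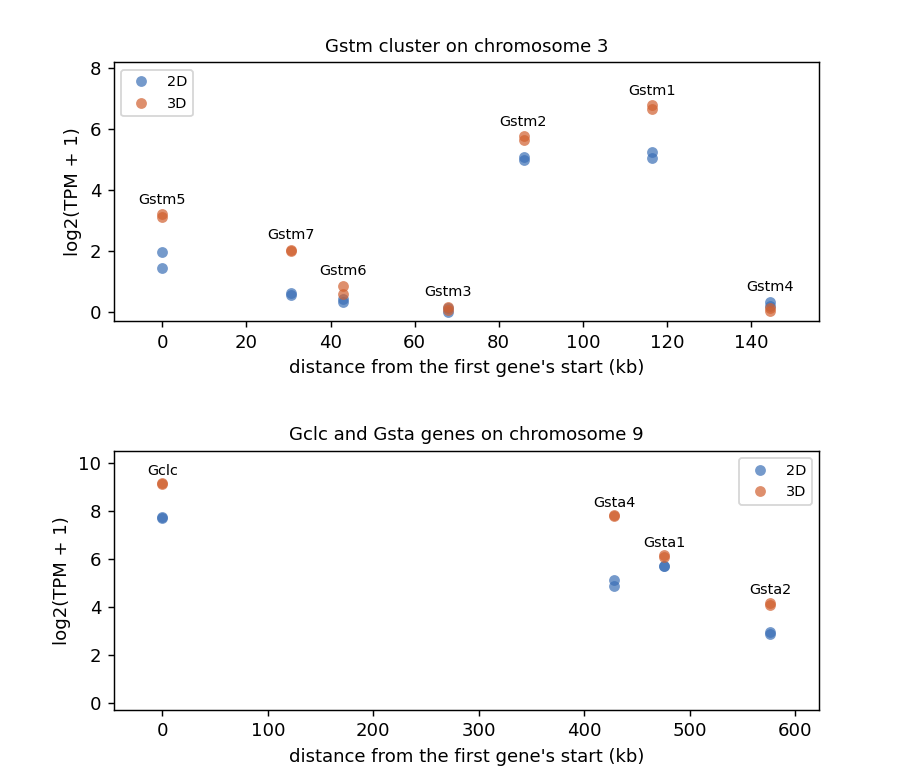
Level of each gene (log2(TPM + 1), 1 point per library, 2D in blue and 3D in orange) against distance in kb from the start of the first gene, for the mu-class array on chromosome 3 (top) and for Gclc and the alpha-class genes on chromosome 9 (bottom). The 4 tested mu-class genes are higher in 3D and are interspersed with 3 genes under 1 TPM in every library. Of the 4, Gstm7 entered the test only through its level in 3D. The 4 genes shown on chromosome 9 are higher in 3D, and other genes of that stretch are not shown.

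Gclc and 3 alpha-class genes lie in the same 601.3 kb of chromosome 9. All were higher in 3D, beside 23.4% of all genes tested. Gsta1 and Gsta2 among them are near-copies, and other genes of this stretch were not counted. Gsta4 starts 428.2 kb, Gsta1 476.1 kb and Gsta2 576.5 kb from the start of Gclc. In the theta class, 4 genes lie within 63.3 kb of chromosome 10. Of these only Gstt1, which conjugates small halogenated compounds (ENSMUSG00000001663, 75783813 to 75798584), was tested, at 0.886 and 0.492 TPM in 2D and 8.41 and 7.70 TPM in 3D (log2 fold change 2.43, SE 0.16, limma adjusted p 0.000698). Gstt2, Gstt3 and Gstt4 stayed under 1 TPM in both cultures, and in 2D so did Gstt1.

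The transferases most abundant in 2D rose by smaller factors. Gsto1, which reduces dehydroascorbate and other substrates through a thioltransferase activity, read 425 and 413 TPM in 2D and 573 and 572 TPM in 3D, a 1.37-fold rise (log2 fold change 0.45, SE 0.03, limma adjusted p 0.00103). Gstp1, a pi-class enzyme with a broad range of substrates, read 275 and 269 TPM in 2D and 374 and 369 TPM in 3D, also 1.37-fold (limma adjusted p 0.00111). Some of its reads could belong elsewhere, since 52.8% of its 100-base stretches occur in Gstp2 or the pseudogene Gstp-ps. Gstp1, Gstp2 and Gstp-ps together summed to 415 and 380 TPM in 2D and to 521 and 516 TPM in 3D. Gstp2, at 1.88 to 2.44 TPM, and Gstp3, at 4.38 to 6.30 TPM, had log2 fold changes of 0.05 and -0.07 with standard errors of 0.14 and 0.19, and neither passed the test.

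Sums over classes do not depend on how reads were split within a class, though they leave out Gm3776, Gm10639 and Gstp-ps. Summed TPM of the alpha class rose from 91.4 and 87.0 in 2D to 324 and 330.2 in 3D (log2 fold change 1.86, SE 0.04, limma adjusted p 0.000185). The mu class rose from 67.5 and 73.3 to 167 and 171 (1.25, SE 0.06, limma adjusted p 0.000366). The theta class went from 1.55 and 1.32 to 9.27 and 8.69 (2.04, SE 0.11, limma adjusted p 0.000489). The pi and omega classes rose by 0.44 and 0.45. Of 12 enzyme classes so summed, 7 were higher and 2 lower in 3D, beside 23.4% and 27.1% of all genes in the same fit. The small rise of the summed glutathione peroxidases (0.17, limma adjusted p 0.0434) and the small fall of the summed thioredoxin reductases (-0.13, limma adjusted p 0.0479) were lost under most alternatives, and the fall of the summed superoxide dismutases (-0.27) was lost without 3D replicate 1.

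The make-up of the transferase pool shifted as well. All transferase genes, Mgst included, summed to 1010.0 and 1007 TPM in 2D and to 1647 and 1672 TPM in 3D. Gsto1 held 42.0% and 41.1% of that sum in 2D and 34.8% and 34.2% in 3D. Gsta4 held 3.31% and 2.81% in 2D and 13.4% and 13.3% in 3D. Gsto1 and Gstp1 were the 2 most abundant in all 4 libraries.

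**Figure D4:**
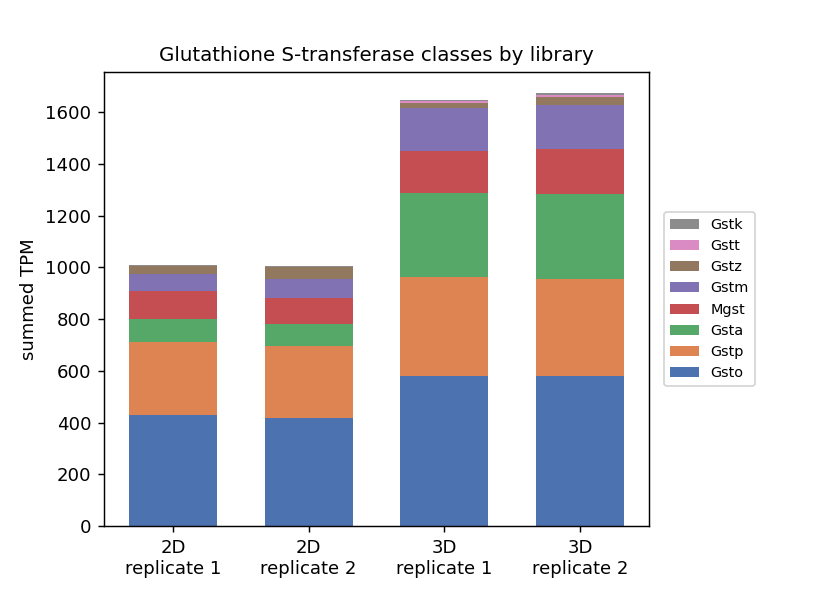
Summed TPM of the glutathione S-transferase classes, stacked in 1 bar per library. The bars reach 1010.0 and 1007 TPM in 2D and 1647 and 1672 TPM in 3D, the alpha segment (Gsta) grows from 91.4 and 87.0 TPM to 324 and 330.2 TPM, and omega (Gsto) and pi (Gstp) are the largest segments in all 4 bars.

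The membrane-bound transferases of the microsomal family moved in opposite directions. Mgst1, which sits in the endoplasmic reticulum and outer mitochondrial membrane and also reduces lipid peroxides (ENSMUSG00000008540, chromosome 6, 138140316 to 138156755), read 23.5 and 22.9 TPM in 2D and 70.5 and 78.2 TPM in 3D. It rose 3.20-fold (log2 fold change 1.64, SE 0.07, limma adjusted p 0.000341). Mgst2, which can make leukotriene C4, read 26.7 and 29.2 TPM in 2D and 56.3 and 59.9 TPM in 3D, 2.08-fold higher. Mgst3 was the only transferase called lower in 3D, from 55.3 and 48.5 TPM to 35.5 and 32.6 TPM (log2 fold change -0.59, SE 0.09, limma adjusted p 0.00590).

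A few transferases gave no call. Gstz1, which isomerises maleylacetoacetate in tyrosine breakdown, read 29.95 and 45.2 TPM in 2D and 18.7 and 31.6 TPM in 3D. The libraries of the 2 cultures overlapped, and a log2 fold change of -0.58 had a standard error of 0.31 (limma adjusted p 0.183). In a fit that also paired libraries by replicate number, Gstz1 was called lower (limma adjusted p 0.00761). The mitochondrial and peroxisomal Gstk1 read 3.10 and 3.39 TPM in 2D and 3.66 and 5.03 TPM in 3D (limma adjusted p 0.156). Gsto2, the minor omega enzyme, did pass, from 4.78 and 4.84 TPM to 7.28 and 7.52 TPM, although without 3D replicate 2 its limma adjusted p was 0.0505.

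Of 3 glutathione peroxidases tested, 1 rose, 1 fell and 1 was not called. Gpx4, which reduces phospholipid hydroperoxides and protects from ferroptosis, was the most abundant of the 56 genes in every library, with 618 and 613 TPM in 2D and 702 and 744 TPM in 3D. The difference was small, 1.18-fold (log2 fold change 0.23, SE 0.04, limma adjusted p 0.0103), and without 3D replicate 2 the limma adjusted p was 0.0777. Of its 100-base stretches 48.4% also occur in AC122253.3 or the pseudogene Gpx4-ps2. Gpx1, the main cytosolic peroxidase, read 233 and 160.4 TPM in 2D and 231 and 186 TPM in 3D. Its libraries differed more within a culture than between cultures (log2 fold change 0.10, SE 0.21, limma adjusted p 0.704).

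Gpx8, an endoplasmic reticulum member of the family that has no selenocysteine (ENSMUSG00000021760, chromosome 13, 113042753 to 113046410), had the lowest log2 fold change of the 43 genes tested. It read 18.98 and 26.6 TPM in 2D and 6.42 and 9.18 TPM in 3D, so the 3D mean was 0.342 of the 2D mean (log2 fold change -1.43, SE 0.22, limma adjusted p 0.00708). Gpx3, the secreted plasma enzyme, had 1.17 and 0.865 TPM in 2D and 0.626 and 0.227 TPM in 3D and was not tested. Gpx2, Gpx5, Gpx6 and Gpx7 were also below the limit for testing.

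Catalase and the superoxide dismutases were split. Cat, the peroxisomal enzyme that breaks down hydrogen peroxide without glutathione (ENSMUSG00000027187, chromosome 2, 103453849 to 103485160), read 58.2 and 58.8 TPM in 2D and 121 and 119 TPM in 3D, a 2.05-fold rise (log2 fold change 1.02, SE 0.04, limma adjusted p 0.000317). Sod1, the cytosolic copper and zinc enzyme, fell from 354 and 367 TPM to 282 and 298 TPM (log2 fold change -0.31, SE 0.05, limma adjusted p 0.00579). Sod2, the mitochondrial manganese enzyme, read 23.7 and 23.4 TPM in 2D and 27.8 and 27.6 TPM in 3D. Its small rise (0.23, SE 0.06) passed the test at a limma adjusted p of 0.0278 but lay between 0.0665 and 0.125 whenever a library was left out.

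The peroxiredoxins, abundant thiol peroxidases that draw their electrons from thioredoxin, changed in different directions. Prdx4, the member of the endoplasmic reticulum, fell from 19.7 and 20.3 TPM to 11.1 and 11.4 TPM (log2 fold change -0.78, SE 0.07, limma adjusted p 0.00143). Prdx2, a cytosolic member, fell from 364 and 343 TPM to 253 and 262 TPM (-0.45, SE 0.05, limma adjusted p 0.00220). Prdx6, which unlike the others uses glutathione, fell from 187 and 169 TPM to 145 and 134 TPM (-0.34, SE 0.07, limma adjusted p 0.0157). The last call was lost without 3D replicate 2, at a limma adjusted p of 0.0764.

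The mitochondrial Prdx3 read 79.3 and 80.5 TPM in 2D and 89.3 and 92.5 TPM in 3D, a call (limma adjusted p 0.0265) that was lost whenever a library was left out, at 0.0580 to 0.143. Prdx5, which also works in mitochondria and peroxisomes, read 311 and 294 TPM in 2D and 361 and 523 TPM in 3D. The 3D libraries lay further from each other than from the 2D libraries at their nearest, and it was not called (limma adjusted p 0.0688), though without 3D replicate 1 it was (0.00769). Prdx1, the cytosolic member, read 544 and 438 TPM in 2D and 517 and 539.9 TPM in 3D, where the cultures overlapped (limma adjusted p 0.422), and without 2D replicate 1 it was called higher (0.0176). Summed over the 6 genes, peroxiredoxin RNA was 1505 and 1344 TPM in 2D and 1377 and 1563 TPM in 3D, a difference that did not pass (log2 fold change 0.05, SE 0.09, limma adjusted p 0.684).

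In the thioredoxin system 2 genes fell, 1 rose and 2 were not called. Txn1, the small protein that hands electrons to the peroxiredoxins and to ribonucleotide reductase (ENSMUSG00000028367, chromosome 4, 57943373 to 57956411), fell from 237 and 228 TPM to 159.7 and 158 TPM. The 3D mean was 0.683 of the 2D mean (log2 fold change -0.55, SE 0.04, limma adjusted p 0.000939). Txnrd2, the mitochondrial thioredoxin reductase, fell from 23.9 and 22.9 TPM to 15.6 and 17.8 TPM (-0.47, SE 0.09, limma adjusted p 0.0117). Txnrd1, the cytosolic reductase and a textbook NRF2 target, read 196 and 204 TPM in 2D and 189 and 186 TPM in 3D, a log2 fold change of -0.09 that did not pass (SE 0.04, limma adjusted p 0.135).

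Srxn1, sulfiredoxin, restores peroxiredoxins whose cysteine has been over-oxidised. It rose from 32.2 and 36.5 TPM to 48.5 and 45.3 TPM (log2 fold change 0.44, SE 0.08, limma adjusted p 0.0120), a call lost without 3D replicate 1 at 0.0628. Txnrd3, best known from testis, read 3.68 and 3.73 TPM in 2D and 2.84 and 3.97 TPM in 3D, with overlapping libraries (limma adjusted p 0.603).

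Hmox1 and Nqo1, which are often read together as reporters of NRF2, were at very different levels. Hmox1, heme oxygenase, was abundant in both cultures, at 278 and 266 TPM in 2D and 396 and 402 TPM in 3D (1.47-fold, log2 fold change 0.55, SE 0.04, limma adjusted p 0.000913). Nqo1, the quinone reductase (ENSMUSG00000003849, chromosome 8, 107388225 to 107403206), was close to absent in all libraries, at 0.162 and 0.209 TPM in 2D and 0.0266 and 0.0579 TPM in 3D, and was not tested. The 13 genes not tested lay between 0 and 1.17 TPM, and a value of 0 can be a failed estimate. Besides those named above they include Sod3, the extracellular superoxide dismutase, at 0.264 and 0.332 TPM in 2D and 0.626 and 0.696 TPM in 3D.

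Other genes of the same pathways, in 4 lists outside the symbol rule, were counted in the same fit. Of 26 tested genes in a list of further NRF2-type targets, 18 (69.2%) were higher and 3 (11.5%) lower in 3D, beside 23.4% and 27.1% of all genes, with a median log2 fold change of 0.60. The list was drawn up with earlier results known, so this count is a description. Aldh3a1, among the higher genes, was under 1 TPM in 2D and entered the test only through its level in 3D, so it had to differ. The canalicular pump Abcc2, which exports glutathione conjugates into bile, went from 2.22 and 3.83 TPM to 63.0 and 59.4 TPM (20.2-fold, log2 fold change 3.98, SE 0.20, limma adjusted p 0.000465). The ferritin heavy chain Fth1, which stores iron, rose from 7252 and 7095 TPM to 15881 and 15989 TPM (2.22-fold, log2 fold change 1.15, limma adjusted p 0.000192). The carbonyl reductase Cbr1 read 3.73 and 4.93 TPM in 2D and 12.7 and 14.7 TPM in 3D. Ugt1a6a, a glucuronosyltransferase that shares exons with its neighbours, read 3.18 and 1.36 TPM in 2D and 19.9 and 22.5 TPM in 3D. The 3 that fell, Trim16, Ptgr1 and Blvra, fell by 0.53, 0.43 and 0.23 on the log2 scale, and at most 2 of them were called when a library was left out.

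Of 13 tested genes that control NRF2, 4 (30.8%) were higher and 2 (15.4%) lower, with a median of 0.15, beside 23.4% and 27.1% of all genes. The higher ones include all 3 small MAF partners that NRF2 can pair with. Maff read 107 and 108 TPM in 2D and 182 and 183 TPM in 3D (log2 fold change 0.76, limma adjusted p 0.000447). Mafg read 99.5 and 104 TPM in 2D and 170.4 and 173 TPM in 3D (0.75, limma adjusted p 0.000611). Mafk rose by a smaller amount, from 81.9 and 85.0 TPM to 102 and 105 TPM (0.31, limma adjusted p 0.00574). The autophagy adaptor Sqstm1, which sequesters KEAP1, fell from 1287 and 1265 TPM to 1065 and 1079 TPM, and Palb2, which competes for KEAP1, from 11.7 and 11.8 TPM to 7.82 and 8.30 TPM.

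Genes of glutathione supply and breakdown were evenly split. Of 21 tested genes in that list 7 (33.3%) were higher, 7 (33.3%) lower and 7 not called, beside 23.4% and 27.1% of all genes. The median was 0.03, and without 3D replicate 1 only 4 were lower. Anpep, an ectopeptidase that helps take glutathione apart outside the cell, rose from 2.00 and 2.07 TPM to 9.46 and 10.1 TPM (log2 fold change 1.83, limma adjusted p 0.000474). The mitochondrial glutaredoxin Glrx2 rose from 8.98 and 9.07 TPM to 18.5 and 17.3 TPM. Chac1, which degrades glutathione inside the cell, fell from 52.6 and 50.0 TPM to 33.0 and 31.8 TPM (-0.65, limma adjusted p 0.00148). Slc3a2, the heavy chain of the cystine and other amino acid exchangers, was the highest gene of the list at 789.8 and 750.1 TPM in 2D and 842 and 823 TPM in 3D, and was not called.

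Selenoproteins are of interest because several glutathione peroxidases and thioredoxin reductases contain selenocysteine and the medium was supplied with selenite. Of 24 tested genes for their synthesis and for other thiol repair, 6 (25%) were higher, 5 (20.8%) lower and 13 not called, near the 23.4% and 27.1% of all genes. The median was 0.03, and with either of the 3D libraries left out only 2 were lower. Selenop, the selenium carrier that liver secretes into plasma, rose from 139 and 126 TPM to 976 and 979.8 TPM (7.40-fold, log2 fold change 2.88, SE 0.06, limma adjusted p 0.000173). Sephs2, which activates selenium for the selenocysteine tRNA, rose from 148 and 143 TPM to 269 and 276 TPM. The methionine sulfoxide reductases Msrb1 and Msrb3 fell by 0.60 and 0.65 on the log2 scale.

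**Figure D5:**
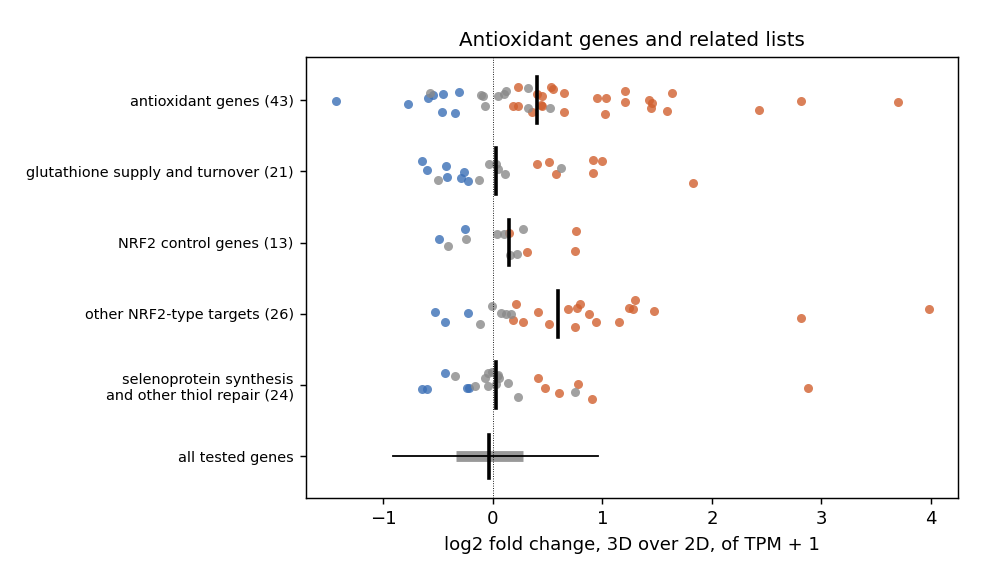
Log2 fold change (3D minus 2D) of every tested gene of the symbol rule (antioxidant genes) and of the 4 further lists, coloured by limma's call, with a black bar at each median. The bottom row gives the median, the quartiles (thick) and the 5th to 95th percentiles (thin) of all genes tested, whose median of -0.04 lies below the 0.40 of the 43 genes and the 0.60 of the further NRF2-type targets.

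Markers of hepatocytes moved in the same comparison. Their summed level was 9644 and 9441 TPM in 2D and 5465 and 5542 TPM in 3D. That sum was made up mainly of the keratins Krt8 and Krt18, the only hepatocyte markers called lower. Alb rose from a mean of 1.01 to 11.4 TPM and Ttr from 3.55 to 84.5 TPM. Apob, Hnf4a, Foxa2 and Apoa1 were also called higher. Of 6 mesenchymal markers found only Des reached 1 TPM, and their sum was 34.96 and 37.6 TPM in 2D and 20.02 and 18.9 TPM in 3D. Biliary markers summed to 2294 to 2401 TPM in 2D and 2269 to 2357 TPM in 3D, with Epcam at or near 0. Within that sum Spp1 rose 5.09-fold and Sox9 1.56-fold, while Krt7 fell to 0.637 and Krt19 to 0.711 of the 2D mean, all 4 called by limma. Immune markers summed to 20.3 to 21.7 TPM in 2D and 22.7 to 26.9 TPM in 3D, mostly Cd68. The part of any of these in the differences described above was not tested.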

How the data were processed

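Polyadenylated RNA of 2 libraries from 2D and 2 from 3D cultures of AML12 cells was analysed. The submitters' processing notes list cutadapt 1.8.3, Trimmomatic 0.36, HISAT2 2.0.5, StringTie 1.3.4 and DESeq2, with GRCm38 and Ensembl release 93 as references. The authors deposited TPM values per gene and library. A log2 fold change and a p-value of their own comparison, also deposited, were not used.

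For the comparison, limma 3.58.1 in R 4.3.3 was fitted to log2(TPM + 1) of the 14116 genes whose mean over all libraries was at least 1 TPM, with a trended and robust prior variance and no covariate besides culture. Tests were two-sided, and Benjamini-Hochberg adjusted p-values were read at 0.05. Fold changes on this scale understate the change of genes with low TPM. Class sums replaced their members in a further fit. Permuting 2 libraries against 2 gives no exact p-value below 0.333, so no such test was made. The genes and the 4 lists were chosen with earlier results of these data known. Of each list, genes named in the text come from the 3 largest rises and 3 largest falls among called genes and the 2 highest mean TPM values. Aldh3a1 is named besides these for its low level in 2D. Exact 100-base stretches shared between transcripts were counted in GENCODE M21, where 51 of the 56 genes have the position that the table gives. Promoters are from RefSeq (GRCm38.p6). Python 3.11.15, pandas 2.3.3 and matplotlib 3.10.9 were used, and the model script was checked on simulated data. Hi-C data were not analysed here.

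Other settings tried were a pseudocount of 0.1 or 5, a minimum mean of 0 or 5 TPM, median centring, quantile normalization, TPM rescaled after removal of mitochondrial genes and of the 20 most abundant genes, a prior variance without trend, a replicate block, and fits without each library in turn.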

Additional observations from a re-analysis of the deposited data

How the results depend on the processing

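The counts of the 43 genes called higher (21 to 25) and lower (7 to 9) stayed within 1.5 times the reported count under every alternative run. Their median log2 fold change, 0.40 as reported, was 0.34 with a pseudocount of 5 and 0.25 with no filter on low values, where all 56 genes enter, and 0.36 to 0.44 when a library was left out. With no filter 0 further NRF2-type targets were called lower. When a library was left out, 4 to 7 glutathione supply genes, 0 to 2 further NRF2-type targets and 2 to 6 selenoprotein and thiol repair genes were lower. The lowest counts came without 3D replicate 1 for the first 2 lists and without either 3D library for the third. Fewer of all genes tested were also called when a library was left out, and fewest without a 3D library. Whether the list counts follow from this was not tested.

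Leaving out a library turned the sign of results that had not passed the test. The log2 fold change of Gpx1 was -0.17 to 0.37, of Gstp2 -0.078 to 0.18, of Gstp3 -0.26 to 0.12, of Prdx1 -0.041 to 0.27, of Txnrd3 -0.29 to 0.081 and of the summed peroxiredoxins -0.046 to 0.14. Without 2D replicate 2 the value was -0.17 for Gpx1, 0.12 for Gstp3, -0.041 for Prdx1 and -0.036 for the peroxiredoxin sum. Without 3D replicate 1 it was -0.052 for Gpx1 and 0.081 for Txnrd3, and without 3D replicate 2 it was -0.078 for Gstp2, 0.11 for Gstp3 and -0.046 for the peroxiredoxin sum. Of 554 values of single genes under the alternatives, 524 kept their direction and side of the threshold, 18 no longer passed, 5 newly passed and 7 changed sign. Such fits leave a culture with 1 library, which is assumed to vary like the other culture.

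Libraries with the same replicate number did not deviate together (correlation -0.0549 across 14116 genes, which are not independent). With 2 libraries per culture this cannot decide whether the numbers pair libraries. With a replicate block 24 of the 43 genes were higher, 9 lower, and 6248 of all genes were called in place of 7122. Gstz1 was then called lower (limma adjusted p 0.00761) and Keap1 higher (0.0474), while Sod2 (0.0716) and Prdx3 (0.0627) were no longer called.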
